A study of Mus musculus with 4 samples.

Results

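The interleukin 17 (IL-17) axis was followed through 4 droplet RNA sequencing libraries of mouse adipose tissue by 7 genes taken from the feature list by symbol, out of 32290 features. They were the cytokine genes Il17a and Il17f, the genes Il23r and Il1r1 for receptors carried by the cells that make these cytokines, and Il17ra, Il17rc and Il17re for the chains of the cytokine receptors. All 7 had UMIs (unique molecular identifiers, each marking 1 captured transcript). They were listed for their role in the axis, with earlier results of these data known. The study asked what loss of the telomerase gene Tert in endothelial cells (EC) does to fat tissue and its other cells. Its mice were male, 7 months old and on a high-fat diet (HFD) for 5 months. WT mice were Tie2e-cre; TERT+/+; mTmG and KO mice were Tie2e-cre; TERTfl/fl; mTmG, so that both genotypes carried the recombinase and the reporter and differed in the floxed alleles. There was 1 library each of WT SC, KO SC, WT IP and KO IP, where SC is subcutaneous and IP visceral intraperitoneal adipose tissue.

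Several features limit these groups as a model of the axis. The recombinase was driven by an EC promoter, yet the tables held only 2, 2, 4 and 1 EC-like cells in WT SC, KO SC, WT IP and KO IP. GFP, which the mTmG reporter makes after recombination in place of tdTomato, was read in T-like cells at 1463, 721, 1879 and 729 CPM in the same order (CPM are UMI counts scaled to the total of the class in that library). Transcripts of tdTomato stood at 8.15 to 15.1 CPM in these cells. What part the recombination of T cells had in any result was not tested. The labels do not give the number of mice behind a library and name cells in some places and nuclei in others as what was loaded.

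IL-17A and IL-17F are related cytokines secreted by a small set of lymphocytes, among them γδ T cells, which lie in adipose tissue and barrier tissues, and CD4 T helper cells. The producing cells answer to interleukin 23 through IL-23R and to interleukin 1 through IL-1R1. Receiving cells, often fibroblasts and epithelia, bind IL-17A and IL-17F with IL-17RA paired with IL-17RC, and bind the related IL-17C with IL-17RA paired with IL-17RE. In fat, γδ T cells that make IL-17A are known for acting on stromal cells and on heat production.

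The 7 genes lie on 2 chromosomes, and all are protein coding (GRCm38, GENCODE annotation). Il17a (chromosome 1, 20730905 to 20734496, plus strand) and Il17f (20777146 to 20790617, minus strand) are neighbours, 42649 bp apart. Il1r1 lies on the same chromosome (40225080 to 40317257, plus strand), where it overlaps Gm38070 on the same strand, so that reads could be shared between these. Il23r (67422932 to 67491855, minus strand), Il17re (113458484 to 113470758), Il17rc (113471427 to 113483140) and Il17ra (120463247 to 120487559), the last 3 on the plus strand, lie on chromosome 6. Only 668 bp separate Il17re from Il17rc. RefSeq promoter sequences (GRCm38.p6) were at hand for 6 of the 7 genes. Those of the 3 genes that marked the producers are shown because their transcripts moved between libraries. They cover the 250 bases before the start site, chr1:20730655-20730904 (plus strand) for Il17a, chr1:20784271-20784520 (minus strand) for Il17f and chr6:67491856-67492105 (minus strand) for Il23r. The RefSeq start site of Il17f lies inside the longer GENCODE gene. Each is written 5′ to 3′ along its own gene, and the capitals mark AGGTCA or its reverse complement TGACCT, the core letters that many nuclear receptors bind.
Il17a: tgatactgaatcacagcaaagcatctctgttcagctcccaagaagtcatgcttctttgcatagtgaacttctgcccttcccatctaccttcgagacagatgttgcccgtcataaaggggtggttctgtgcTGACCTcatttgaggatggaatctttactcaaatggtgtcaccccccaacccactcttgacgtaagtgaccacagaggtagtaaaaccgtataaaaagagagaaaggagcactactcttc
Il17f: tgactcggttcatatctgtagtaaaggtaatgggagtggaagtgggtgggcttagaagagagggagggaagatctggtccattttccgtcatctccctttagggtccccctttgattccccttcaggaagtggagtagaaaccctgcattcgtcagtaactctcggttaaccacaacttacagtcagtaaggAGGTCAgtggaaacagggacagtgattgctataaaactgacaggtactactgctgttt
Il23r: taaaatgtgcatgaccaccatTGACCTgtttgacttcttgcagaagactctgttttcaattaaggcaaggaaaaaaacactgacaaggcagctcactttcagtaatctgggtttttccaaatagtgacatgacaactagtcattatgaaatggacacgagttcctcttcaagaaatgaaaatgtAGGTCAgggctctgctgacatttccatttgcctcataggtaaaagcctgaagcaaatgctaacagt
The letters stood at position -120 from the start site in Il17a, on the other strand, at -58 in Il17f, and at -66 and, on the other strand, -229 in Il23r. Of 32851 promoters of the same length, 14.0% held them on either strand. TATAAA, the TATA box, stood at -31 in Il17a and -29 in Il17f, against 12.4% of all promoters on either strand. Neither run of letters was in the windows of Il1r1, Il17rc or Il17re. A match here describes the letters of these windows and says nothing about binding.

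The 4 tables held 4927 barcodes and 10015201 to 15533961 UMIs each, and 4021 cells passed the filters (968, 1863, 672 and 518 for WT SC, KO SC, WT IP and KO IP, median depth 6902 to 13047 UMIs). Tert, the targeted gene, had 3, 2, 8 and 9 UMIs over all barcodes of WT SC, KO SC, WT IP and KO IP, which is too few to check its deletion. KO SC shared 92 barcodes with WT IP and no other pair of libraries shared any. The WT IP copies had a median of 58.5 times as many UMIs, so the KO SC copies were dropped. These were 36.7% of the adipose stromal cells (ASC) of KO SC, 76 of 207, and they held 18 Il1r1 UMIs and none of Il17a or Il17f. No value of the axis genes moved outside its counting interval when they were kept. Cells were classed by marker UMIs as T-like (470, 1174, 126 and 132 cells in WT SC, KO SC, WT IP and KO IP), ASC-like (95, 131, 286 and 226) and others, and 126 cells had no class. T-like cells carried a median of 6 of 9 T cell markers and ASC-like cells 8 of 8 ASC markers. Each group had 1 library, so differences have no replicate spread to be judged by. All intervals are 95% intervals (exact Poisson for CPM, Clopper-Pearson for shares, conditional binomial for ratios of CPM and Katz for ratios of shares), cover counting error only, and no test was made.

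The 7 genes fell into producer and receiver patterns. Of 1819 Il17a UMIs in kept cells, 1816 (99.8%) were in T-like cells, as were 792 of 796 Il17f UMIs (99.5%) and 1304 of 1347 Il23r UMIs (96.8%). Il1r1 was read in both kinds of cell, with 6085 of its 7512 UMIs (81.0%) in ASC-like and 996 (13.3%) in T-like cells. Il17ra was spread widest, with 894 of 2249 UMIs (39.8%) in T-like, 798 (35.5%) in ASC-like and 234 (10.4%) in B-like cells. Il17rc was low outside stromal classes and Il17re was read in T-like and mesothelial-like cells. The 23 barcodes called as doublets and left out held 37 Il17a UMIs in 4 barcodes, and 98 Il1r1 UMIs.

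**Figure D1:**
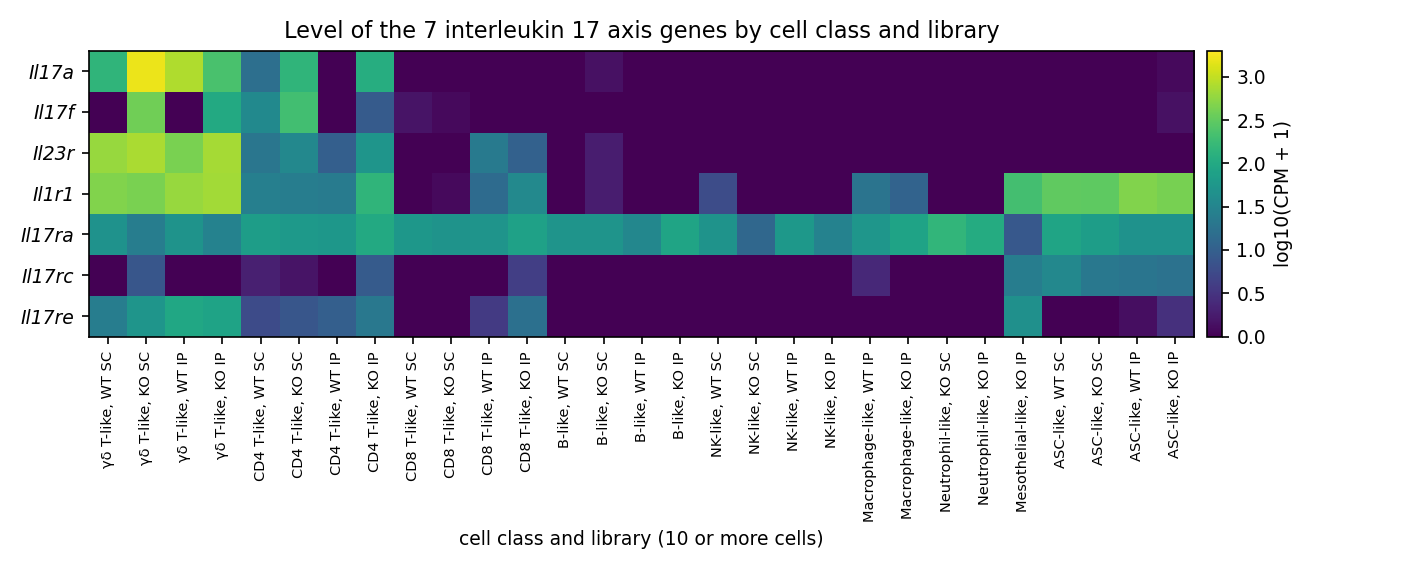
Level of each of the 7 genes, as log10(CPM + 1) on a colour scale, for γδ, CD4 and CD8 T-like, B-like, NK-like, macrophage-like, neutrophil-like, mesothelial-like and ASC-like cells of each library with 10 or more of them. Il17a, Il17f and Il23r stand in the T-like columns, Il1r1 in the γδ T-like columns (up to 703 CPM, in KO IP) and the ASC-like columns (up to 473 CPM, in WT IP), and Il17ra in every column shown.

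γδ T-like cells were a larger share of the T-like cells in KO than in WT in both depots. They were set by T cell receptor genes, with at least 2 of Trdc, Tcrg-C1, Tcrg-C2, Tcrg-C4, Tcrg-V6, Tcrg-V4 and Trdv4 and more UMIs of these than of Trac, Trbc1 and Trbc2. Their share was 5.11% (24 of 470, interval 3.3 to 7.50) in WT SC, 9.28% (109 of 1174, 7.69 to 11.1) in KO SC, 12.7% (16 of 126, 7.44 to 19.8) in WT IP and 25.8% (34 of 132, 18.5 to 34.1) in KO IP. On the log2 scale the share was higher by 0.86 (interval 0.24 to 1.48) in KO SC than in WT SC and by 1.02 (0.24 to 1.80) in KO IP than in WT IP. The interval of each ratio left out 0, while the intervals of the shares of WT IP and KO IP overlapped. IP exceeded SC by 1.31 (0.45 to 2.18) in WT and 1.47 (0.98 to 1.96) in KO. When classes were named by cluster instead, and only the 95-cell cluster described next counted as γδ, the shares were 1.28%, 7.41%, 0.826% and 0% for WT SC, KO SC, WT IP and KO IP. KO IP then lay below WT IP (log2 -1.61, -6.21 to 2.99) and IP below SC (-0.63, -3.67 to 2.41 in WT and -4.20, -8.20 to -0.20 in KO). Set against all kept cells, the shares were 2.48%, 5.85%, 2.38% and 6.56% in WT SC, KO SC, WT IP and KO IP, so that KO stood above WT in each depot and the depots were alike within a genotype (log2 IP against SC -0.06 in WT and 0.17 in KO).

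The γδ T-like cells of KO SC fell mostly in a cluster of their own when all cells were clustered by their transcriptomes. A cluster of 95 cells, in all of which Trdc was read, drew 88 cells from KO SC, 6 from WT SC, 1 from WT IP and none from KO IP. It held 87 of the 109 γδ T-like cells of KO SC. A second cluster of 178 cells, mixed γδ and other T cells with Trdc in 44.9%, held 13, 16, 11 and 33 γδ T-like cells of WT SC, KO SC, WT IP and KO IP. These counts are a description, and no test was made of them. With 1 library per group a cluster drawn mostly from 1 library may be that library and not a type: library and genotype cannot be told apart here.

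T-like cells with an Il17a or Il17f UMI, called producers here, were more frequent in KO than in WT in both depots. Their share was 2.34% (11 of 470, interval 1.17 to 4.15) in WT SC, 10.1% (118 of 1174, 8.39 to 11.9) in KO SC, 5.56% (7 of 126, 2.26 to 11.1) in WT IP and 15.2% (20 of 132, 9.51 to 22.4) in KO IP. The log2 ratio of KO to WT was 2.10 (1.22 to 2.98) in SC, where the intervals of the shares did not overlap, and 1.45 (0.26 to 2.64) in IP, where they did. IP lay above SC in both genotypes, but the intervals of the log2 ratios held 0 (-0.09 to 2.58 in WT and -0.04 to 1.22 in KO). After thinning each cell to 3000 UMIs the shares were 1.58%, 9.27%, 4.0% and 9.52%, with 26, 31, 1 and 6 shallower cells left out in WT SC, KO SC, WT IP and KO IP. By these values KO remained above WT in both depots, and KO IP and KO SC came close to each other. No interval was taken for the ratios of the thinned shares.

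Free RNA in the droplets was gauged in B-like cells, which should lack both cytokines. Of these, 0 of 302 in WT SC, 1 of 462 (0.216%) in KO SC, 0 of 22 in WT IP and 0 of 24 in KO IP had a UMI. The zeros allow a share of up to 0.993%, 13.6% and 12.5%, so that in IP the B-like cells were too few to give a useful background. Median depths were 9036, 7798, 7721 and 7858 UMIs in T-like cells and 5944, 4903, 6367 and 7310 in B-like cells of the 4 libraries in order. In SC the shares in T-like cells stood above this background in both genotypes.

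**Figure D2:**
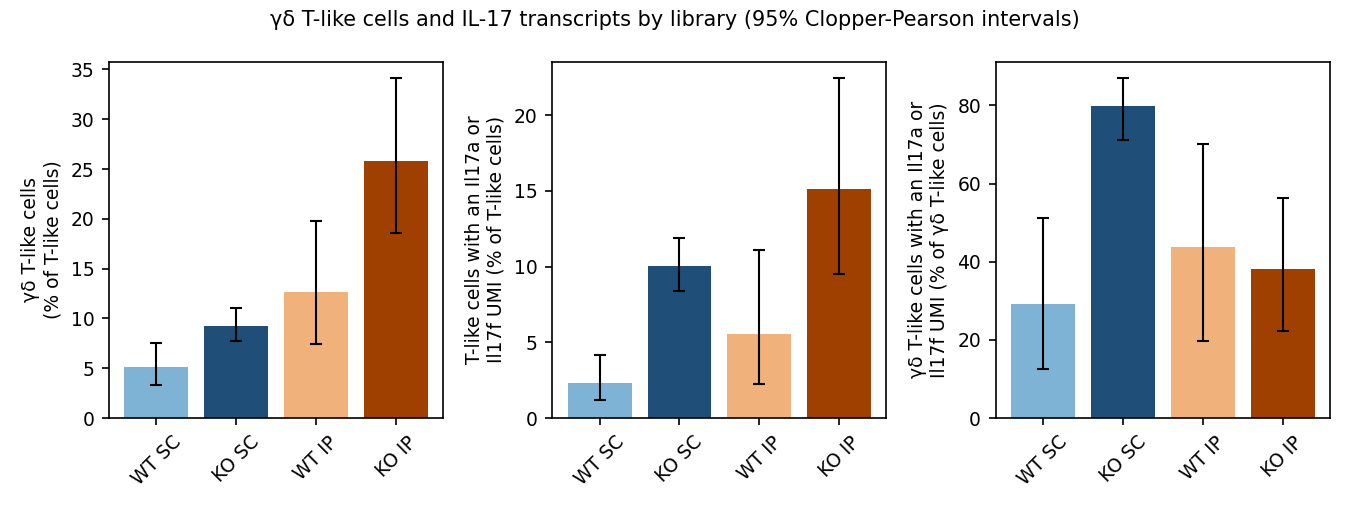
Share of T-like cells that were γδ T-like, share of T-like cells with an Il17a or Il17f UMI, and share of γδ T-like cells with one, in percent by library (bars, with lines for 95% Clopper-Pearson intervals). KO stands above WT in both depots in the panels over T-like cells, and KO SC stands apart among γδ T-like cells at 79.8%.

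Most producers were γδ T-like cells. Of 156 producers, 114 (73.1%) were γδ T-like, 30 (19.2%) CD4 T-like, 2 CD8 T-like and 10 of no lineage called, and none was a regulatory T-like cell. Among γδ T-like cells the share of producers was 29.2% (7 of 24) in WT SC, 79.8% (87 of 109, interval 71.1 to 86.9) in KO SC, 43.8% (7 of 16) in WT IP and 38.2% (13 of 34) in KO IP. KO SC exceeded WT SC by 1.45 on the log2 scale (0.54 to 2.36), while KO IP and WT IP differed by -0.19 (-1.21 to 0.82), an interval that held 0. Thinned to 3000 UMIs these shares were 13.0%, 75.7%, 31.3% and 24.2%, with 1, 6, 0 and 1 cells left out, and the libraries kept their order. Inside the 95-cell cluster 78 of 87 γδ T-like cells of KO SC were producers (89.7%), and outside it 9 of 22 (40.9%), beside 4 of 18 (22.2%) in WT SC, 6 of 15 (40.0%) in WT IP and 13 of 34 (38.2%) in KO IP. Outside γδ T-like cells, producers were 4 of 446 T-like cells (0.897%), 31 of 1065 (2.91%), 0 of 110 and 7 of 98 (7.14%) for WT SC, KO SC, WT IP and KO IP. Among CD4 T-like cells these were 2 of 113, 23 of 290 (7.93%), none of 32 and 5 of 28 (17.9%).

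Il17a, the founding member of the cytokine family, was lowest by far in T-like cells of WT SC. It stood at 13.3 CPM (interval 10.2 to 17, 62 UMIs in 9 cells) in WT SC, 159 (151 to 167, 1525 UMIs in 111 cells) in KO SC, 95.4 (78.9 to 114, 117 UMIs in 7 cells) in WT IP and 94.0 (77.4 to 113, 112 UMIs in 19 cells) in KO IP. KO SC was higher than WT SC by 3.57 on the log2 scale (3.21 to 3.97), with intervals of the levels far apart. KO IP and WT IP overlapped, at a ratio of -0.02 (-0.41 to 0.36). IP against SC was 2.84 (2.39 to 3.31) in WT and -0.75 (-1.05 to -0.48) in KO. KO SC was highest, WT IP and KO IP followed with overlapping intervals, and WT SC was lowest, while every class other than T-like had 1 UMI or none.

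The level in WT IP rested on few cells. A γδ T-like cell with 52 UMIs gave 44.4% of its Il17a, and 3 cells gave 86.3%, against 6.03% and 16.3% in KO SC. Without the cell highest in each library, Il17a in T-like cells was at 9.68, 149.5, 53.5 and 76.3 CPM in WT SC, KO SC, WT IP and KO IP, and the ratio of KO IP to WT IP became 0.51. KO SC stayed highest and WT SC lowest. In γδ T-like cells alone Il17a stood at 142 CPM (99.6 to 197) in WT SC, 1601 (1512 to 1695) in KO SC, 816 (675 to 978) in WT IP and 222 (173 to 280) in KO IP. KO against WT was thus 3.47 (3.02 to 4.01) in SC and -1.87 (-2.33 to -1.44) in IP on the log2 scale. The median over γδ T-like cells with a UMI was 1, 9, 6 and 3.5 UMIs per cell in WT SC, KO SC, WT IP and KO IP, and the highest cells had 17, 92, 52 and 22. In KO SC both the number of producing cells and the UMIs per producing cell were high, while in KO IP more T-like cells had a UMI than in WT IP and each had fewer. CD4 T-like cells carried Il17a at 15.2 CPM in WT SC, all in 1 cell, 141 in KO SC, 0 (limit 13.7) in WT IP and 112 in KO IP. Their ratio of KO to WT was 3.17 (2.49 to 4.04) in SC. KO IP stood at 8.18 times the WT IP limit, taking 3 counts as the floor of that library. The interval of the log2 ratio began at 2.64. Without the cell that gave 14 of its 28 UMIs, KO IP stood at 4.22 times that limit.

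**Figure D3:**
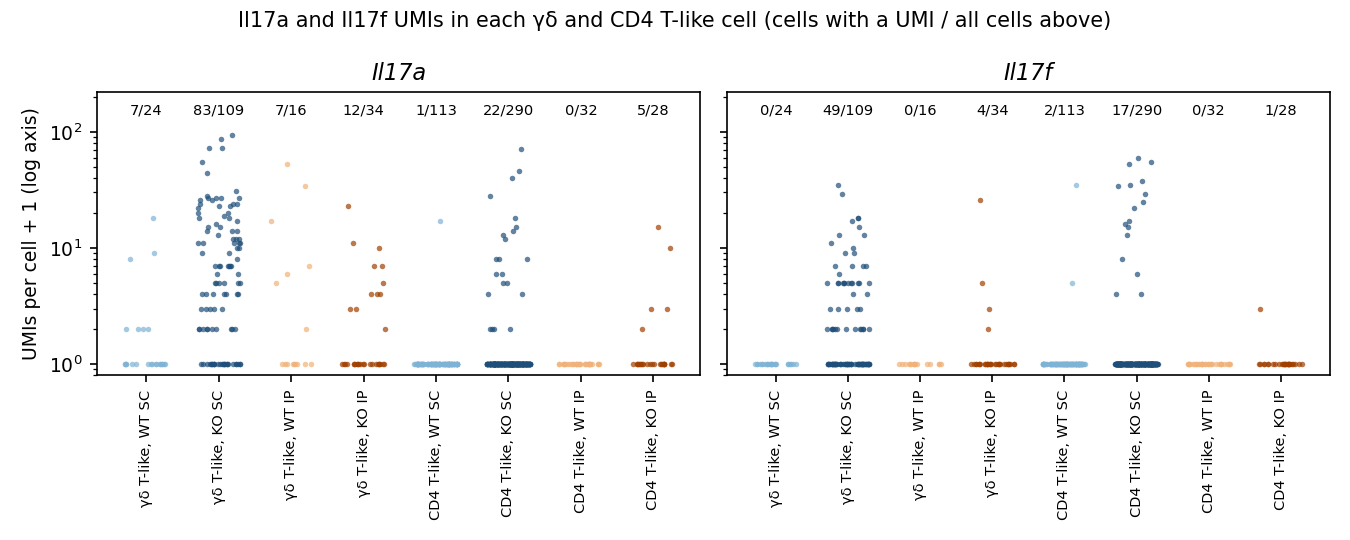
UMIs of Il17a (left) and Il17f (right) in each γδ T-like and CD4 T-like cell, plotted as UMIs plus 1 on a log axis, by library, with the number of cells with a UMI over all cells above each column. KO SC holds most of the cells with many UMIs (up to 92 of Il17a), and for Il17f every cell of both subsets of WT IP lies at 0 UMIs.

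Il17f, whose product pairs with IL-17A or with itself, was read mainly in KO SC. T-like cells had 8.36 CPM (5.95 to 11.4, 39 UMIs in 3 cells) in WT SC, 74.6 (69.3 to 80.3, 716 UMIs in 70 cells) in KO SC, 0 (limit 2.45) in WT IP and 31.0 (21.9 to 42.8, 37 UMIs in 6 cells) in KO IP. None of the intervals overlapped another. KO SC was higher than WT SC by 3.14 on the log2 scale (2.69 to 3.66). KO IP stood at 12.7 times the WT IP limit, and the interval of its log2 ratio to WT IP began at 3.29. Single cells decided the low libraries. In WT SC 34 of 39 UMIs (87.2%) came from a CD4 T-like cell, and in KO IP 25 of 37 (67.6%) from a γδ T-like cell. Without the highest cell of each library the SC ratio of Il17f was 5.86, and KO IP against KO SC, -1.25 (-1.78 to -0.79) over all cells, was -2.70. Without its highest cell KO IP was at 10.2 CPM, 4.15 times the WT IP limit.

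Unlike Il17a, Il17f had more UMIs in CD4 T-like than in γδ T-like cells when the libraries were pooled. Of its 796 UMIs, 457 (57.4%) were in CD4 T-like and 323 (40.6%) in γδ T-like cells, where Il17a had 341 (18.7%) and 1428 (78.5%) of 1819. This mostly describes KO SC, with 417 of the CD4 T-like UMIs. In KO IP the order was the other way, with 2 UMIs in CD4 T-like and 32 in γδ T-like cells. By cells, 20 CD4 T-like and 53 γδ T-like cells had an Il17f UMI. In γδ T-like cells Il17f had no UMI in WT SC (limit 11.8 CPM) or WT IP (limit 20.9), 387 CPM (344 to 434) in KO SC and 99.96 (68.4 to 141) in KO IP. KO SC therefore stood at 32.7 times the WT SC limit and KO IP at 4.78 times the WT IP limit. The intervals of the log2 ratios of KO to WT began at 4.72 in SC and 1.87 in IP. In KO IP 1 cell gave 25 of the 32 UMIs (78.1%), and without it the 7 left (22.6 CPM) stood at 1.08 times the WT IP limit. KO SC without its highest cell was still at 29.2 times the WT SC limit. CD4 T-like cells had 36.2, 199, 0 and 7.99 CPM of Il17f in WT SC, KO SC, WT IP and KO IP, with a limit of 13.7 for WT IP. KO SC exceeded WT SC by 2.44 (1.98 to 2.98) on the log2 scale. Positive CD4 T-like cells of KO SC had a median of 21 Il17f UMIs over 17 cells, and positive γδ T-like cells 4 over 49 cells. UMIs of both cytokines were found in 63 T-like cells of KO SC, 45 of them γδ T-like and 16 CD4 T-like, in 1 of WT SC, 5 of KO IP and none of WT IP.

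Il23r, the chain that gives the interleukin 23 receptor its ligand, was read almost only in T-like cells and was highest in KO IP. T-like cells had 52.1 CPM (45.7 to 59.1) in WT SC, 73.6 (68.3 to 79.2) in KO SC, 62.8 (49.6 to 78.5) in WT IP and 233 (207 to 262) in KO IP. KO against WT was 0.50 (0.29 to 0.71) in SC and 1.89 (1.52 to 2.28) in IP on the log2 scale. KO IP stood apart from the other 3 libraries, and WT IP overlapped both SC libraries. Within γδ T-like cells the levels were closer together, at 624 CPM (530 to 729) in WT SC, 758 (697 to 823) in KO SC, 425 (325 to 546) in WT IP and 712 (623 to 811) in KO IP. KO against WT was 0.28 (0.02 to 0.54) in SC and 0.74 (0.33 to 1.18) in IP. A UMI was found in 70.8%, 85.3%, 75.0% and 91.2% of the γδ T-like cells of WT SC, KO SC, WT IP and KO IP, and in 60.9%, 72.8%, 50% and 78.8% after thinning, with 1, 6, 0 and 1 cells left out. CD4 T-like cells stood at 19.0, 33.8, 9.12 and 51.9 CPM. Il23r had no UMI in ASC-like cells of any library and 2 in B-like cells.

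Il1r1, the signalling receptor of interleukin 1, was alike in T-like cells of both SC libraries, with a ratio whose interval held 0, and was highest in KO IP. It stood at 41.8 CPM (36.1 to 48.1) in WT SC, 40.9 (36.9 to 45.1) in KO SC, 92.2 (76.0 to 111) in WT IP and 248 (221 to 278) in KO IP. The log2 ratio of KO to WT was -0.03 (-0.28 to 0.22) in SC and 1.43 (1.11 to 1.76) in IP. The SC libraries overlapped and both IP libraries stood above them. Within γδ T-like cells the levels were closer together, with 470 CPM (389 to 562) in WT SC, 428 (383 to 478) in KO SC, 621 (498 to 764) in WT IP and 703 (614 to 801) in KO IP, and ratios of KO to WT of -0.14 (-0.44 to 0.18) and 0.18 (-0.18 to 0.55), whose intervals held 0. A UMI was found in 66.7%, 81.7%, 75.0% and 97.1% of γδ T-like cells in the 4 libraries, and in 60.9%, 62.1%, 56.3% and 78.8% after thinning. CD4 T-like cells had 25.7, 23.8, 22.8 and 144 CPM, the last in 5 of 28 cells. Because ASC-like cells are the main source of Il1r1, ASC markers were counted in T-like cells. Their summed level was 9.0, 9.38, 44.0 and 45.3 CPM in WT SC, KO SC, WT IP and KO IP, with 2, 0, 0 and 1 of 8 markers at 0. The chemokine genes Cxcl2 and Cxcl5, which ASC-like cells of KO IP also carried, were higher in T-like cells of KO IP than of WT IP, with 32 against 3 UMIs of Cxcl2 and 56, all in 1 cell, against 0 of Cxcl5. What part RNA of other cells had in the Il1r1 of T-like cells was not tested. None of the 22 and 24 B-like cells of WT IP and KO IP had an Il1r1 UMI, which allows up to 13.6% and 12.5%. UMIs of Il23r and Il1r1 together were found in 62.5%, 75.2%, 75.0% and 88.2% of γδ T-like cells of WT SC, KO SC, WT IP and KO IP.

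Il17re, known for its part in the IL-17C receptor, stood higher in γδ T-like cells than in T-like cells as a whole in every library. T-like cells had 3.22, 5.94, 14.7 and 34.4 CPM, from 15, 57, 18 and 41 UMIs, in WT SC, KO SC, WT IP and KO IP. KO against WT was 0.85 (0.05 to 1.81) in SC and 1.21 (0.40 to 2.11) in IP, and IP against SC 2.18 in WT and 2.54 in KO. In γδ T-like cells the levels were 23.7, 51.9, 90.6 and 81.2 CPM with intervals that overlapped between genotypes of a depot. Without the highest cell of each library, the IP ratio of Il17re was 2.15. Il17ra stood at 47.4, 23.9, 48.8 and 28.1 CPM in γδ T-like cells and at 56.6, 52.2, 41.6 and 65.4 in T-like cells as a whole. Its ratio of KO to WT in T-like cells was -0.12 (-0.33 to 0.10) in SC and 0.65 (0.13 to 1.19) in IP. Il17rc had 2, 7, 1 and 4 UMIs in the T-like cells of the 4 libraries.

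The producers shared transcripts beyond the 7 genes. Among the 114 γδ T-like producers, Trdv4 was found in 100, Tcrg-V6 in 61 and Tcrg-V4 in 2, Rora in 114, Cxcr6 (a chemokine receptor) in 113, Blk (a kinase of γδ T cells) in 110, Cd163l1 in 109 and Ccr2 in 107. Il23r and Il1r1 were each found in 105 of them. Of the 114, 87 were cells of KO SC, so these pooled counts mostly describe that library. Among the 69 γδ T-like cells with neither cytokine, Trdv4 was found in 43, Tcrg-V6 in 28, Blk in 51, Il23r in 48 and Il1r1 in 45, so the receptors were not confined to cells with a cytokine UMI. The 30 CD4 T-like producers had Il23r in 20, Il1r1 in 18, Trac in 29 and Ccr6, the receptor by which type 3 lymphocytes home to epithelia, in 14, where the 433 CD4 T-like cells with neither cytokine had Il23r in 14 and Il1r1 in 14. Among all genes, those highest in producers against other T-like cells by the mean log2 ratio over libraries were Cpe (5.00), Trdv4 (4.95), Zbtb7c (4.92), Cryba4 (4.92), Tcrg-V6 (4.79), Adam12 (4.39), Abi3bp (4.29), Ppp1r14c (4.27), Gcnt2 (4.19) and Trdc (4.08). Trdv4, Tcrg-V6 and Trdc were among the markers of the γδ T-like class. Of the 156 producers 114 were γδ T-like, while only 69 of the far more numerous T-like cells with neither cytokine were. The ranking thus also sets γδ T-like against other T-like cells, and what part that had in it was not tested. For Cpe, which encodes a prohormone carboxypeptidase, the ratio was 4.78, 6.68, 7.35 and 1.17 in WT SC, KO SC, WT IP and KO IP. All 10 were higher in producers in every library and 9 of 10 least so in KO IP, the exception being Zbtb7c at 4.60 there and 3.12 in WT IP.

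In SC no gene of the wider producer program passed a log2 ratio of 1 between genotypes, of 19 compared, with a median of -0.09 beside -0.15 over all genes. Blk (0.89), Cxcr6 (0.75), Ccr2 (0.68) and Cd163l1 (0.63) had the highest ratios in T-like cells. In IP 7 of 18 were higher in KO by more than 1 and none lower, where 5.71% of all genes compared were higher by that much. They were Cd163l1 (1.89), Blk (1.81), Ccr2 (1.79), Sox13 (1.73), Il18r1 (1.53), Rora (1.23) and Il7r (1.22), and the median of the list was 0.83 beside 0.04 over all genes. γδ T-like cells were 12.7% of the T-like cells of WT IP and 25.8% of those of KO IP. What part that share had in the ratios was not tested.

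Of the cytokines that act on producers, Il1b was read mainly in myeloid classes. Il1b, the ligand of IL-1R1, was read in every neutrophil-like cell, at 6626, 4725, 5757 and 8777 CPM over 5, 10, 3 and 22 cells of WT SC, KO SC, WT IP and KO IP. Monocyte and dendritic-like cells had 1402 CPM of Il1b in WT IP and 2584 in KO IP over 28 and 11 cells, and macrophage-like cells 949 in WT IP and 761 in KO IP over 86 and 31. Il23a, which encodes the subunit particular to interleukin 23, did not exceed 7 UMIs in any class of any library. Neutrophil-like cells were 4.25% of the kept cells of KO IP and 0.446% to 0.537% of the other libraries.

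ASC-like cells, the stromal progenitors of fat, held 81.0% of the Il1r1 UMIs and 82.0% of the Il17rc UMIs. Of the Il17ra UMIs they held 35.5%, beside 39.8% in T-like cells. Il1r1 stood there at 312 CPM (287 to 338) in WT SC, 305 (280 to 332) in KO SC, 473 (456 to 490) in WT IP and 419 (401 to 438) in KO IP. The SC libraries overlapped (log2 KO against WT -0.03, -0.20 to 0.14), and KO IP was slightly below WT IP (-0.18, -0.26 to -0.09). IP exceeded SC by 0.60 (0.47 to 0.73) in WT and 0.46 (0.32 to 0.60) in KO. A UMI was found in 62.1%, 59.5%, 82.5% and 73.0% of ASC-like cells of WT SC, KO SC, WT IP and KO IP, and in 27.6%, 39.5%, 54.5% and 47.1% after thinning to 3000 UMIs, with 19, 17, 33 and 39 cells left out. In WT SC 1 cell gave 209 of 568 UMIs (36.8%). Without the highest cell of each library the levels were 201, 251, 459 and 392 CPM and the SC ratio moved to 0.32, while IP stayed above SC in both genotypes. Among ASC-like cells with no mesothelial marker, of which there were 77, 119, 99 and 78, the intervals of IP against SC for Il1r1 held 0 (0.01, -0.18 to 0.20 in WT and -0.06, -0.31 to 0.17 in KO). That cut left out most ASC-like cells of IP, of which there were 286 in WT and 226 in KO. Among cells with 1 or no such marker (94, 131, 279 and 210), Il1r1 stood at 318, 305, 480 and 429 CPM. IP stayed above SC there in both genotypes.

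**Figure D4:**
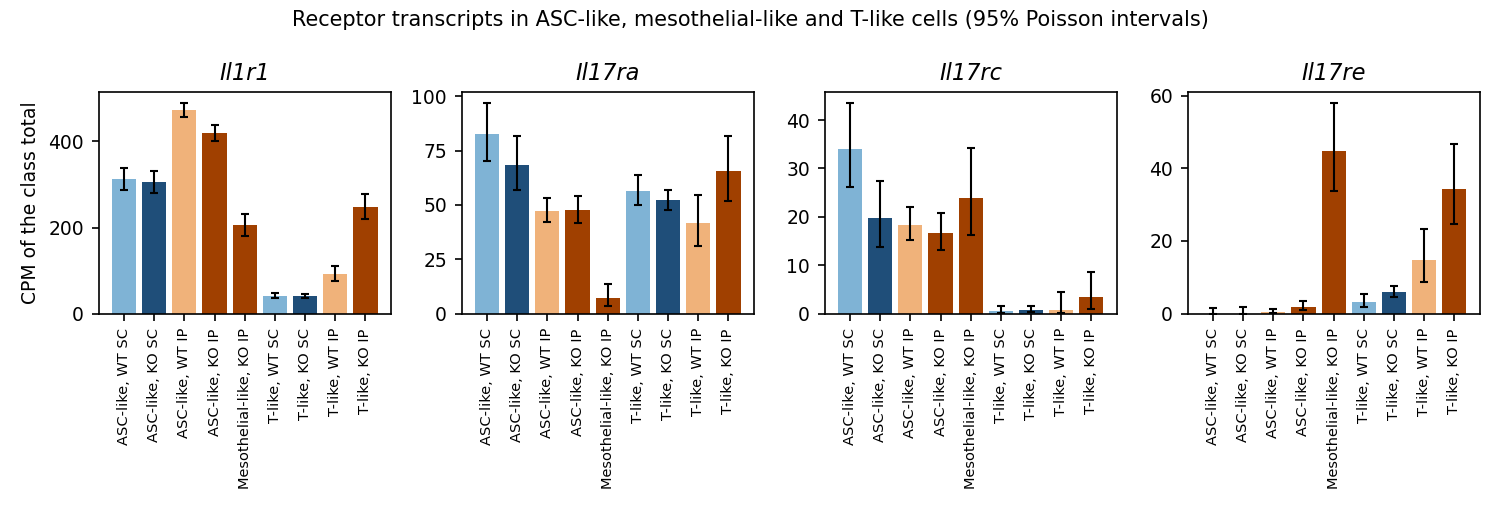
Levels of Il1r1, Il17ra, Il17rc and Il17re in CPM (bars, with lines for 95% Poisson intervals) in ASC-like, mesothelial-like and T-like cells by library. Il17ra and Il17rc in ASC-like cells are highest (82.9 and 34.0 CPM) in WT SC, and Il17re is read in mesothelial-like and T-like cells.

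Il17ra, the chain shared by the receptors of the family, was higher in ASC-like cells of SC than of IP. It stood at 82.9 CPM (70.2 to 97.2) in WT SC, 68.5 (56.9 to 81.8) in KO SC, 47.4 (42.2 to 53.1) in WT IP and 47.5 (41.6 to 54.1) in KO IP. IP against SC was -0.81 (-1.09 to -0.51) in WT and -0.53 (-0.85 to -0.20) in KO, and the intervals of the levels did not overlap between depots. KO against WT was -0.27 (-0.63 to 0.08) in SC and 0.01 (-0.25 to 0.26) in IP, and the genotypes overlapped. In other classes Il17ra stood at 49.5 and 50.7 CPM in B-like cells of WT SC and KO SC and at 54.0 and 80.2 in macrophage-like cells of WT IP and KO IP (0.59, -0.08 to 1.19). Neutrophil-like cells had 249, 150, 196 and 107 CPM in WT SC, KO SC, WT IP and KO IP, from 3 to 12 UMIs each. Among the 13 pairs of class and library with at least 30 cells, Il17ra ran from 41.6 to 82.9 CPM with no neighbours in that order whose intervals were apart.

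Il17rc, the partner chain for IL-17A and IL-17F, set the ASC-like cells apart from leukocytes. It stood at 34.0 CPM (26.1 to 43.6) in WT SC, 19.7 (13.7 to 27.3) in KO SC, 18.4 (15.2 to 22.0) in WT IP and 16.7 (13.2 to 20.8) in KO IP, against at most 3.36 CPM in T-like cells and no UMI in B-like cells of SC. KO SC was below WT SC by -0.78 on the log2 scale (-1.43 to -0.17), although the intervals of both levels overlapped slightly, and KO against WT in IP was -0.14 (-0.57 to 0.29). IP against SC was -0.90 (-1.35 to -0.42) in WT and -0.25 (-0.83 to 0.38) in KO. Among ASC-like cells with no mesothelial marker the SC ratio of Il17rc was -0.67 (-1.38 to 0.02). UMIs of Il17ra and Il17rc in the same cell, the pair that binds both cytokines, were found in 28.4%, 16.8%, 19.6% and 17.7% of the ASC-like cells of WT SC, KO SC, WT IP and KO IP.

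Il17re was read in mesothelial-like cells, the class of the cells that line the visceral cavity. KO IP had 27 of them and WT IP 3, and none was found in SC. In KO IP 20 of the 27 (74.1%) had an Il17re UMI at a level of 44.7 CPM (33.8 to 58.1), beside 24.0 CPM of Il17rc (16.2 to 34.2), 205 of Il1r1 (181 to 232) and 7.19 of Il17ra (3.29 to 13.6). Their median depth was 51203 UMIs, so shares of cells cannot be set beside those of other classes. ASC-like cells held 0, 0, 2 and 9 Il17re UMIs in WT SC, KO SC, WT IP and KO IP, all in cells with 2 or more mesothelial markers.

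Between genotypes, 2 of the 6 genes of the axis with enough UMIs in T-like cells (at least 20 in both libraries together) differed by a log2 ratio of 1 or more in SC, Il17a and Il17f, both higher in KO. Of all 11338 genes compared there, 6.84% did so in either direction, 1.8% higher and 5.04% lower. In IP it was 4 of 6, Il17f, Il23r, Il1r1 and Il17re, all higher in KO, where 9.3% of all genes did so, 5.71% higher and 3.58% lower. Both counts lie above the share of all genes, and they rest on different genes but for Il17f. The 7 genes were chosen with earlier results of these data known, so the counts are a description and not support for a difference. In IP Il17f reached 20 UMIs through KO IP alone (37 UMIs against 0 in WT IP), so it could only be called higher in KO. Of these 37 UMIs, 25 were in 1 cell. In ASC-like cells none of the 3 compared, Il1r1, Il17ra and Il17rc, did so in SC (5.84% of all genes, 3.15% higher and 2.69% lower) or in IP (6.52%, 4.39% higher and 2.12% lower). Nor did Il17ra in B-like cells of SC (4.33%, 1.67% higher and 2.66% lower) or Il1r1 and Il17ra in macrophage-like cells of IP (15.1%, 8.51% higher and 6.54% lower). Between depots, T-like cells of WT had 3 genes of 6 higher in IP (Il17a, Il1r1 and Il17re) and 1 lower (Il17f), beside 12.0% of all genes (7.01% higher, 4.99% lower). That Il17f call rests on 39 UMIs in WT SC against 0 in WT IP, and 34 of the 39 were in 1 cell. Without that cell WT SC stood at 0.44 times the WT IP limit. T-like cells of KO had 3 higher (Il23r, Il1r1 and Il17re) and 1 lower (Il17f), beside 22.2% (17.3% higher, 4.89% lower). In ASC-like cells none of 3 passed between depots in WT (15.9%, 9.29% higher and 6.65% lower) or KO (18.0%, 11.6% higher and 6.49% lower). Comparisons between genotypes and between depots share libraries and are not independent. The median of all genes was off 0 by more than 0.1 in T-like cells of KO against WT in SC (-0.15) and of IP against SC (0.12 in WT and 0.32 in KO). Relative to it Il17a in T-like cells of KO IP was lower still than in KO SC, and the higher values of Il23r, Il1r1 and Il17re in IP of KO kept their direction.

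**Figure D5:**
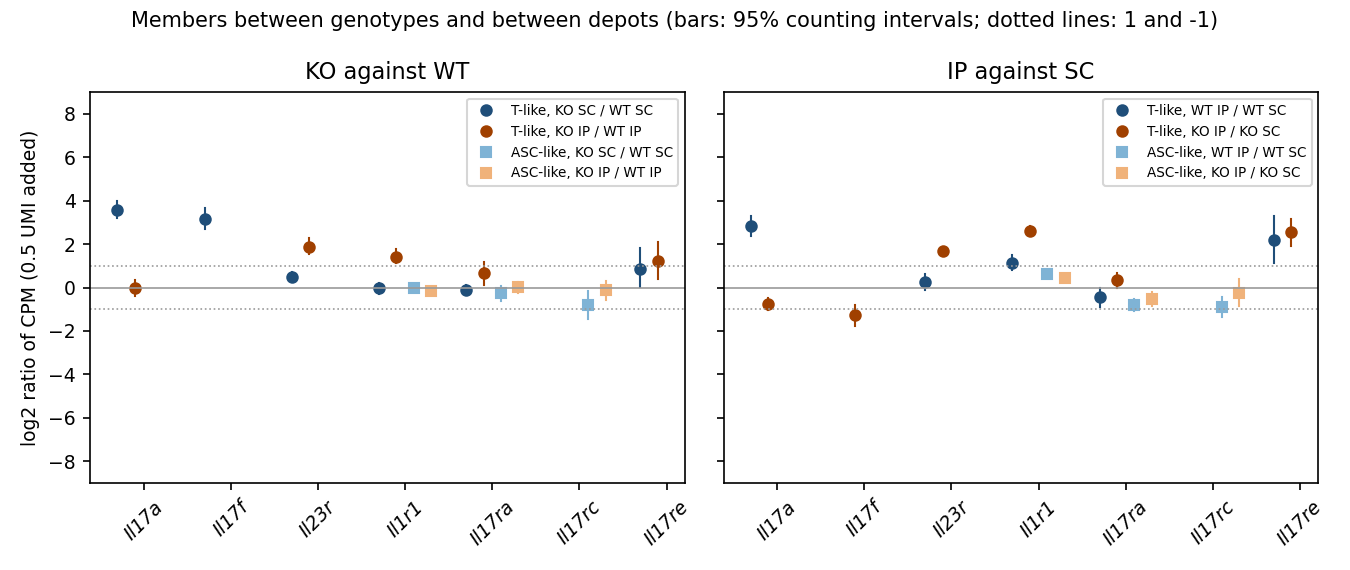
Log2 ratio of CPM for each gene of the axis between genotypes within a depot and between depots within a genotype, in T-like and ASC-like cells, with 95% counting intervals as bars and dotted lines at 1 and -1. Ratios of genes with 0 UMIs in a library are left out, which removes Il17f of T-like cells in the comparisons with WT IP, and Il17a of KO SC against WT SC stands highest at 3.57.

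Signalling and target genes of IL-17 were read in ASC-like cells as the receiving side. The downstream signalling list had no gene past a log2 ratio of 1 between genotypes in T-like cells, of 15 compared in SC (6.84% of all genes) and 14 in IP (9.3%). In ASC-like cells, 14 genes could be compared in SC and 1 passed, the kinase gene Ikbke, lower in KO (-1.46), beside 5.84% of all genes. In IP it was 1 of 15, Tnfaip3 (1.29), which encodes an inhibitor of NF-κB signalling, beside 6.52% of all genes. Both counts are near the share of all genes. Of the target list none of 10 passed in SC, where the median was 0.03 beside -0.01 over all genes. Il6 was at -0.54 (-0.86 to -0.23), Cxcl1 at 0.46 (0.36 to 0.56) and Mmp3 at -0.56 (-0.77 to -0.36). In IP 5 of 13 were higher in KO by more than 1 and none lower, beside 4.39% of all genes higher. They included Saa3, an acute-phase protein gene (6.59, 6.25 to 6.98), and Lcn2, an iron-scavenging defence protein gene (4.19, 3.72 to 4.73). The rest were the chemokine genes Cxcl5 (3.48, 2.50 to 4.82), Cxcl2 (2.0, 1.80 to 2.20) and Cxcl13 (1.32, 1.06 to 1.59). Single cells weighed on these chemokine genes. In KO IP the highest cell gave 398 of 850 Cxcl2 UMIs, 146 of 354 of Cxcl13 and 32 of 72 of Cxcl5. In WT IP it gave 129 of 185 Cxcl13 UMIs, and Cxcl5 had only 8 UMIs there. The counting intervals do not cover this spread between cells. The list as a whole had a median of 0.14 beside 0.05, and Cxcl1 (-0.01), Il6 (-0.12), Tnfaip2 (0.14) and Steap4 (0.10) were near 0 while Ccl2 was at -0.91 (-1.01 to -0.81).

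Mesothelial markers were also higher in the ASC-like cells of KO IP. Saa3 had 4912 UMIs in 26 of 226 ASC-like cells of KO IP and 66 UMIs in 6 of 286 of WT IP, and none in SC. The 7 mesothelial markers summed to 20.3, 14.0, 154 and 441 CPM in ASC-like cells of WT SC, KO SC, WT IP and KO IP, with 5, 4, 0 and 0 of them at 0. Without the 7 and 16 ASC-like cells that had 2 or more such markers, Saa3 was still higher in KO IP by 6.05 (5.69 to 6.45). Among the cells with no such marker, 99 in WT IP and 78 in KO IP, Saa3 had 9 and 12 UMIs, Lcn2 3 and 3, Cxcl5 0 and 0, Cxcl13 1 and 0 and Cxcl2 29 and 13. Scaled to the total UMIs of these cells, the log2 ratio of KO to WT was 1.37 (0.02 to 2.82) for Saa3. It was 0.98 (-1.92 to 3.88) for Lcn2 and turned to -0.15 (-1.25 to 0.81) for Cxcl2. Mesothelial-like cells of KO IP held Saa3 at 4166 CPM in 22 of 27 cells and Lcn2 in 19. What part mesothelial transcripts had in the ratios of the target genes was not tested.

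Across the 13 pairs of class and library with at least 30 cells, which share libraries, depth and the split between T-like and other cells, the genes most like each member by Spearman correlation of CPM were as follows. Aqp3, a water and glycerol channel gene, was the nearest to Il17a (0.93) and to Il23r (1.0). Fam216a was the nearest to Il17f (0.81), Exoc5 to Il17ra (0.88) and Il17rd, itself a gene of the receptor family, to Il17rc (0.99). Dclk1 and Tln2 were tied as nearest to Il1r1 (0.97), and 2310016D23Rik and Tnfsf11 to Il17re (0.99). Il17rd stood in ASC-like cells at 52.1, 41.6, 31.1 and 33.2 CPM and Il17d, a family cytokine, at 24.7, 20.2, 35.3 and 37.3 in WT SC, KO SC, WT IP and KO IP, and neither passed a log2 ratio of 1 between genotypes.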

How the data were processed

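Cells of WT and EC-Tert-KO adipose tissue had been captured on the 10x Genomics Chromium with 3' chemistry. The matrices deposited hold raw UMI counts, and the file headers name Cell Ranger 7.0.0. STAR 2.6 and mm10 stand in the submitters' processing notes. Counting of intronic reads is not given in the sources used here.

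Barcodes under 200 genes (747) or over 25% mitochondrial UMIs (44) were left out, as were 23 doublets marked by Scrublet in scanpy 1.11.5 (expected rate 5%) and the lesser copy of each of the 92 shared barcodes. A cell took the class with the highest mean log2(1 + UMI) over its markers. It needed at least 2 markers and 1.25 times the mean of every class outside its kin. Kin were ASC and mesothelial, T and NK, macrophage and monocyte or dendritic, EC and lymphatic EC, and B and plasma classes. Kin classes were split by the higher mean alone, with no margin. The rule left 126 cells without a class, 27 of them at a ratio of 1 to 1.25. Sums of UMIs per class and library were scaled to CPM. Log2 ratios, with 0.5 UMI added, were taken where a gene reached 20 UMIs over the pair of libraries and a class 30 cells in each. A count of 0 was taken to allow 3 counts. Shares were recomputed after thinning cells to 3000 UMIs. Gene positions came from GENCODE and promoters from RefSeq.

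Named genes were the 7 members, Tert and genes of fixed lists, together with the 3 genes most like each member by rank correlation (the nearest is named, with any tie) and the 10 genes highest in producers. 1 gene of a fixed list is not reported here. The 7 genes, markers and lists were chosen with earlier results of these data known. Alternatives in the choice of cells, clustering, scaling, weighting and thinning were tried. The ratio script was tested on simulated data. The software was igraph 0.11.9, pandas 2.3.3, scipy 1.17.1 and numpy 2.4.6 under Python 3.11.15.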

Additional observations from a re-analysis of the deposited data

Results flagged for a closer look

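In 3 cases the level of Il17a differed in opposite directions under the same contrast. In T-like cells IP against SC gave a log2 ratio of 2.84 (interval 2.39 to 3.31) in WT and -0.75 (-1.05 to -0.48) in KO. In γδ T-like cells KO against WT gave 3.47 (3.02 to 4.01) in SC and -1.87 (-2.33 to -1.44) in IP. In the same cells IP against SC gave 2.51 (1.97 to 3.10) in WT and -2.84 (-3.22 to -2.51) in KO. Each pair of ratios uses the same 4 libraries, so these are 3 views of the same values. The difference was not tested, since each group holds 1 library. The WT IP value rests on 7 cells, of which 3 gave 86.3% of the UMIs.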

How the results depend on the processing

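No paired analysis was possible because each group holds 1 library. Of 862 alternatives computed, 813 lay within the counting interval of the reported value, 46 moved outside it and 3 reversed. Named by Leiden clusters, where by construction only the 95-cell cluster counted as γδ, the log2 ratio of the γδ share was 2.54 for KO SC against WT SC and turned round to -1.61 for KO IP against WT IP, -0.63 for WT IP against WT SC and -4.20 for KO IP against KO SC. Il1r1 in ASC-like cells of KO IP was then 443 CPM, with KO against WT at -0.093. With each cell weighted equally, Il17a in T-like cells was 4.03 for KO SC against WT SC and -1.14 for KO IP against KO SC (-1.08 with median-of-ratios scaling). In ASC-like cells the same weighting gave -0.87 for Il17ra in KO SC against WT SC, -1.24 for Il17ra in WT IP against WT SC, and 0.99 and 0.68 for Il1r1 in IP against SC of WT and KO. Equal weights gave no value for ratios with Il17f at 0. Without the cell highest in each library, an alternative chosen after seeing the data, Il17a in T-like cells of KO IP against WT IP was 0.51. Il1r1 in ASC-like cells was then 0.32 for KO SC against WT SC, and 1.19 and 0.64 for IP against SC of WT and KO. Other alternatives chosen after seeing the data (cells with at least 3000 UMIs, shared barcodes kept, ASC-like cells with 2 or more mesothelial markers left out) moved no comparison of the axis genes. Leaving out ASC-like cells with any mesothelial marker, also chosen after seeing the data, put Il1r1 at 337 CPM in WT IP and 304 in KO IP, with IP against SC at 0.0090 in WT and -0.065 in KO. Il17ra was then at -1.40 for WT IP against WT SC and 0.51 for KO IP against WT IP, and Il17rc at -0.72 for the latter. Thinned to 1500 UMIs, γδ T-like cells had an Il1r1 UMI in 34.8% of WT SC, 49.1% of KO SC and 58.8% of KO IP, and KO SC had 54.6% for Il17a and 50% for Il23r. By Pearson correlation 5 of the 21 most like genes were the same. The cause of these moves was not tested. Few UMIs limit Il17rc and Il17re in T-like cells and Il17f in WT, and few cells limit the B-like background in IP.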
